A study of Caenorhabditis elegans with 16 samples.

Results

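Insulin-like peptides are small secreted proteins related to insulin, and Caenorhabditis elegans carries an unusually large family of the genes that encode them. The genes described here are the 37 whose name in the count table is ins- followed by digits, out of 18570 genes in all. They were set out over 165 cell classes of at least 50 cells each, of which 114 were neuron classes and 51 were classes of other tissues. The classes are those of the authors' deposited annotation.

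In worms these peptides bind a single insulin and insulin-like growth factor receptor, DAF-2, and different peptides are known to activate it or to oppose it. The receptor acts through a phosphoinositide kinase cascade on the transcription factor DAF-16, and the pathway sets larval arrest, the choice between growth and the dauer larva, stress resistance and lifespan. Amphid sensory neurons, whose endings lie at the tip of the head, read pheromone, food and temperature and are known sources of such peptides. Like other neuropeptides they are made as precursors, cut by proprotein convertases and released from dense-core vesicles.

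All cells came from hermaphrodite larvae of the first stage with a wild-type label, except that animals 21 to 24 h after hatching were labelled as first or second stage. Cells carrying a fluorescent reporter were sorted and captured on the 10x Genomics droplet platform, where each captured transcript is counted once by its unique molecular identifier (UMI). The 16 libraries formed 13 groups, and nothing in the labels says that libraries of 1 group came from separate cultures. Comparisons were made within libraries, so p-values measure how the difference between kinds of cells varied from library to library. That variation may be technical, and between groups it can also hold differences of strain, age and the cells sorted.

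The command interneuron library came from strain NC3581, aged 12 to 16 h, in which sra-11p::Scarlet and inx-6p18::tagRFP (otIs708) were combined with glr-1::GFP (rhIs2). The sensory library came from PS9221, aged 14 to 16 h, with Pocr-2::GFP and Ptax-4::GFP on the array syIs764. The 2 pan-neuronal libraries came from OH10689, aged 11.5 to 14.5 h, whose otIs355 drives a nuclear tagRFP from the rab-3 promoter. The unc-86 library (12 to 15 h) used kyIs262, which carries odr-1::RFP beside unc-86::myr-GFP, and the eat-4 library, of the same age, used OH9625, whose otIs292 carries the dominant rol-6(su1006) beside eat-4::mCherry. The 2 flp-7 libraries came from NY2066, aged 14 to 17 h, with flp-7p::GFP (ynIs66). The 4 P-lineage libraries came from UD381, with venus-tagged vab-10abd and nuclear tdTomato driven by phlh-3 and an odr-1::gfp marker, at 11 to 14 h, 15.5 to 18.5 h and, in 2 libraries, 21 to 24 h.

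Other libraries mixed strains before sorting, so a cell in them cannot be traced to its strain. The live library of the ceh-34 mixture (14 to 17 h) joined NC3583, with ceh-34p::HIS-24::mCherry and unc-119(+) (stIs10447) and with F25B3.3::GFP and dpy-20(+) (evIs111), with NC2957, with unc-4c::GFP (wdIs90) and unc-4::mCherry (ufIs26). A further library of the same mixture and age was fixed in methanol after the sort. The mec-3 mixture (13.5 to 17 h) joined OH16003 with nlp-13::GFP (otIs742), ZM5488 with ceh-10::GFP (hpIs202), both beside lin-15(+), animals with mec-3::RFP (uIs152), and EG1285, a lin-15B and lin-15A(n765) mutant with unc-47::GFP and lin-15(+) (oxIs12). The acr-2 mixture (13 to 17 h) joined CZ631 with acr-2::GFP and lin-15(+) (juIs14), NC3523 with unc-4c::GFP and ceh-22::GFP (wdIs90), and PS3504, an unc-119(ed4) mutant with ceh-2::GFP and unc-119(+) (syIs54). A sort enriches the cells of its reporter, so most classes were caught in only some of the libraries.

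The table held 151415 cells and 261228334 UMIs, with between 1798814 and 50689801 UMIs per library and a median of 227 to 3949 UMIs per cell. The shallowest library was replicate 1 of the pan-neuronal sort. The 37 genes gave 389640 UMIs in all. A barcode occurred in more than 1 library for 5544 cells. Of 59 class and tissue markers in the table, 45 were highest in the class they mark, and 19 of the 23 amphid markers were. ins-1 itself is on that marker list, for AIA, and counts among the 45. The other AIA marker, gcy-28, was highest in DA and then CAN. The ASE marker gcy-5 was highest in RIG and second in ASER, while gcy-7, gcy-6 and che-1 were highest in ASEL or ASER. The muscle myosin gene unc-54 went against its class. Summed over all libraries, it made up a median of 3.08% of the UMIs of a neuron class and 19.1% in AVA. Single libraries went higher: in AIZ it was 41.3% in replicate 2 of the pan-neuronal sort, against 0.00948% in the eat-4 library. In AIA it was 4.02% and 10.3% in pan-neuronal replicates 1 and 2. The totals include unc-54, so a larger share lowers the level of every other gene in that library. The part of unc-54 in the results was not tested beyond leaving it out of the totals. A gene can be missing from a whole library, and 7619 of all genes (41.0%) were at 0 in both pan-neuronal libraries, as were 17 of the 37 insulin-like genes.

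Levels are in CPM, the count of a gene scaled by the total UMIs of the class, from UMIs summed over its cells. A UMI counts a captured molecule and not a read along its length, so counts were not divided by length. A gene was called detected in a class at 50 CPM or more and 10 UMIs or more. By that rule 30 of the 37 genes were detected in at least 1 class. Neuron classes held 28 of them and other tissues 12. The family was sparse in most neurons: 72 of the 114 neuron classes had at least 1 member, the median neuron class had 1, and AWA, an amphid olfactory class, had the most with 17. Of the 17 in AWA, 11 were above 0 in all 3 AWA libraries and 3 in a single one: ins-9, ins-32 and ins-17, which had at most 8.64 CPM in any AWA library with 20 cells. The 14 amphid classes made up 132 of all 283 detected pairs of gene and class. Over libraries with at least 20 cells of the class, 228 of the 283 pairs had UMIs in 2 or more libraries, 32 in 1 of several and 17 in the only one, 3 had none in any, and 3 had no such library. They held between 2 and 17 members each, with a median of 9.5. The 12 pharyngeal classes held a median of 2, and the 53 neuron classes that are neither sensory, pharyngeal nor in the motor pools of the ventral cord a median of 1. Median depth per cell was 583 UMIs in amphid classes, 582 UMIs in pharyngeal classes and 660.5 UMIs in those other neurons.

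Among classes with at least 10 UMIs of the gene, 19 of the 37 genes had their highest class among the amphid neurons. Only ins-10 had it in the pharynx. A single class held all detection of 5 genes, while 14 were detected in 2 to 9 classes and 11 in 10 or more. The most widespread was ins-17, detected in 49 classes at levels from 58.7 CPM to 16862 CPM.

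**Figure D1:**
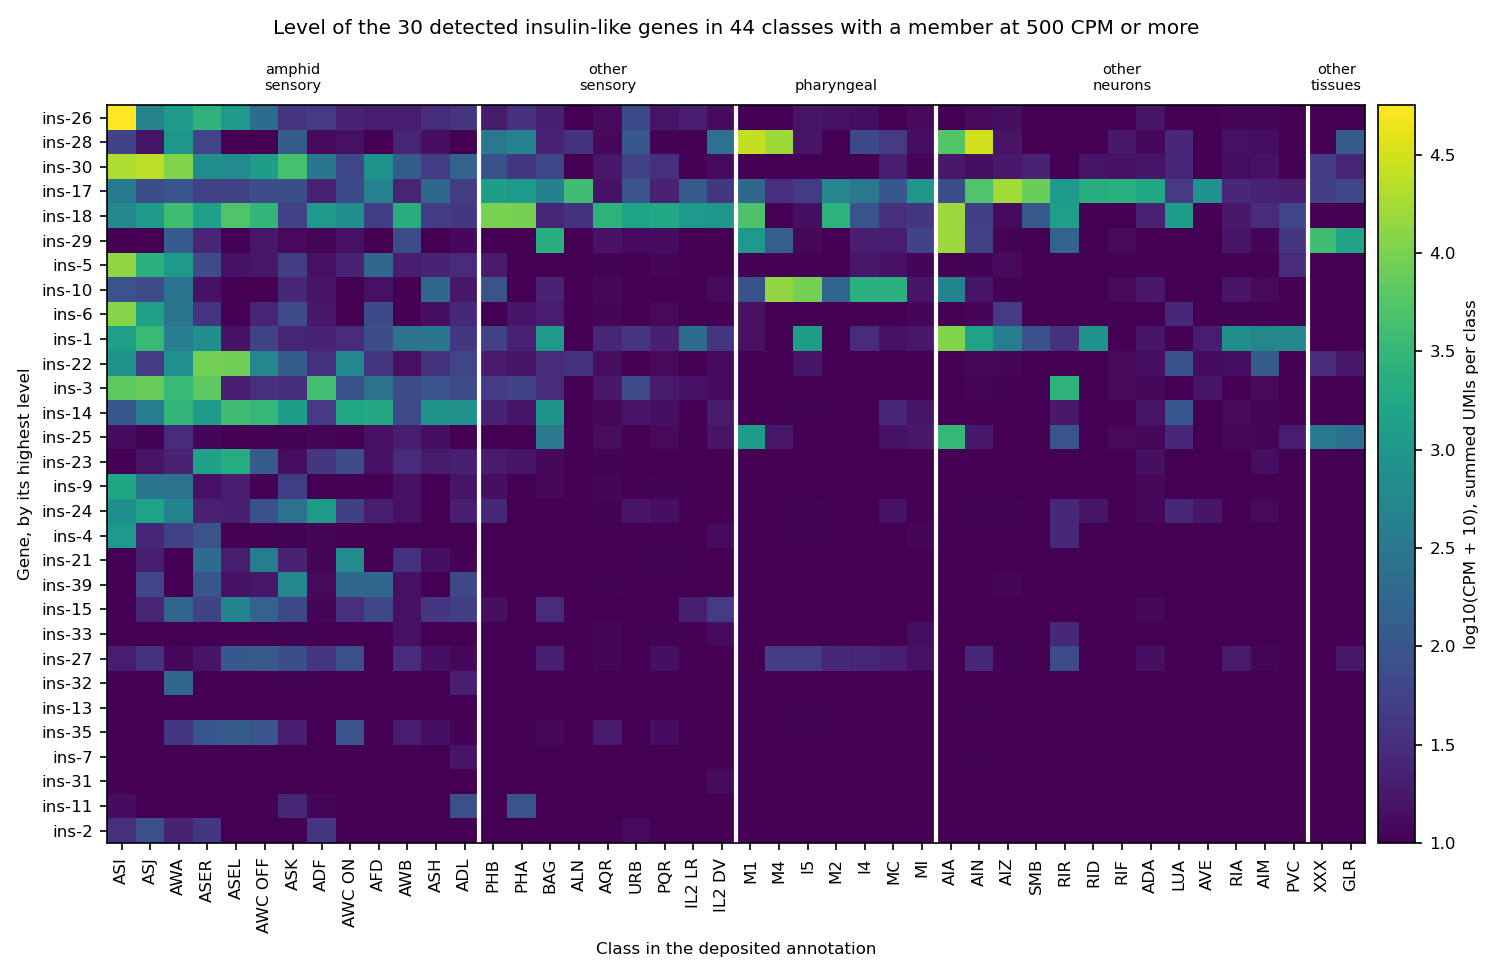
Level of the 30 detected insulin-like genes (rows, by highest level) in the 44 classes where a member reached 500 CPM (columns), as log10(CPM + 10) of UMIs summed over all libraries. The 13 amphid classes stand at the left, and ins-26 in ASI is the brightest cell, at 55803 CPM. ins-17 runs across the most classes, in part at low levels.

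The sum over the family picked out a few classes. In ASI, an amphid neuron known for restraining dauer entry, insulin-like transcripts made up 11.3% of all UMIs. That share was 8.90% in the sensory library, 12.1% in the mec-3 mixture, 10.7% in the acr-2 mixture, and 10.7% and 12.5% in replicates 1 and 2 of the flp-7 sort. All 5 were above every library of any other class at 1% or more. The interneuron AIA followed with 5.09%, and its 2 libraries, both pan-neuronal, gave 5.21% and 5.03%. Next came ASJ with 4.31%, AIN with 3.70%, the pharyngeal neurons M1 and M4 with 3.25% and 2.91%, AWA with 2.72%, and the right and left ASE salt-sensing neurons, ASER and ASEL, with 2.46% and 2.24%. The neighbours in that order from ASJ to ASEL overlapped over their libraries. AIN ranged from 1.28% to 4.21% over 8 libraries, and ASER was 5.88% in replicate 1 of the pan-neuronal sort, from 24 cells, against 2.24% and 2.32% in the sensory and eat-4 libraries.

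**Figure D2:**
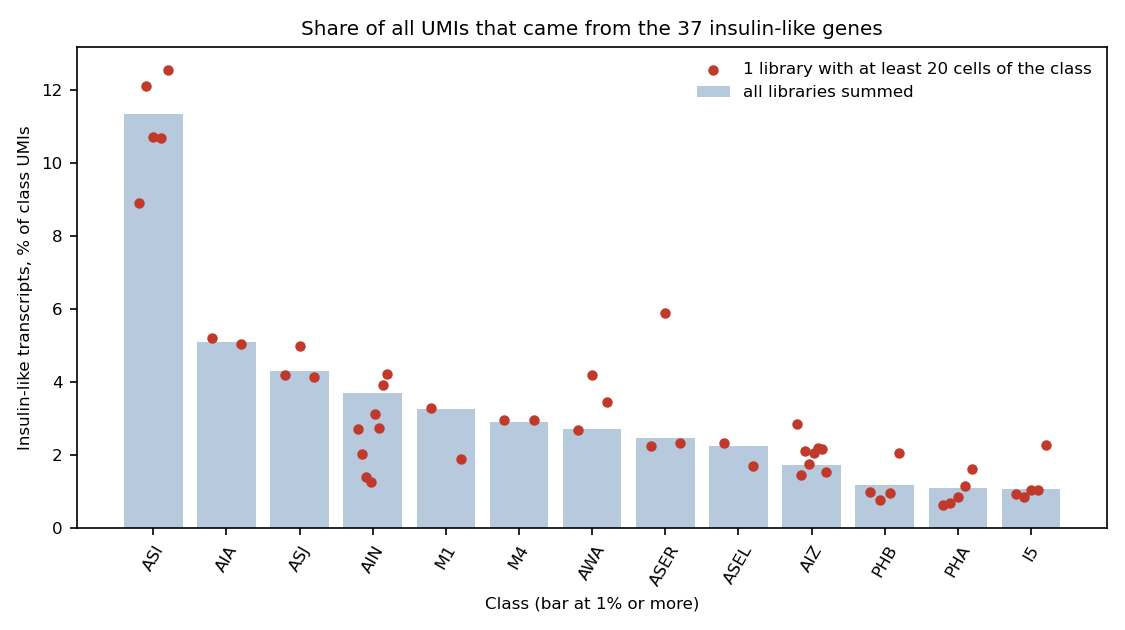
Share of all UMIs of a class that came from the 37 insulin-like genes, for the classes at 1% or more. Bars sum all libraries, points are single libraries with at least 20 cells of the class, and ASI stands above every other class in each of its 5 libraries (8.90% to 12.5%).

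ASI held the highest level of any member. There ins-26 reached 55803 CPM (95% exact Poisson interval 54960 to 56656, for counting error only). It was 37820 CPM in the sensory library, 64407 CPM in the mec-3 mixture, 45474 CPM in the acr-2 mixture, and 68693 and 60948 CPM in the flp-7 libraries. All 5 libraries were far above the next class, ASER, where ins-26 had 2784 CPM. In ASER it varied more, with 8408, 1123 and 3818 CPM in the pan-neuronal, sensory and eat-4 libraries. AWA followed with 1119 CPM.

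The neighbouring genes, ins-5 and ins-6, shared that class. The product of ins-6 is known as a DAF-2 agonist that promotes exit from dauer. In ASI, ins-6 was at 11673 CPM, with 14126, 12112, 11387, 10258 and 10554 CPM in the sensory, mec-3, acr-2, flp-7 replicate 1 and flp-7 replicate 2 libraries. ins-5 was at 13619 CPM there, with 13996, 12314, 15233, 7693 and 14382 CPM in the same libraries. Both had ASJ next (2510 CPM for ins-5, 1408 CPM for ins-6) and then AWA (1039 and 279 CPM). The lone low value of ins-5 came from the shallow flp-7 replicate 1, with 141 UMIs in 38 cells. ASI was also the highest class of ins-9 (1592 CPM) and ins-4 (996 CPM). The level of ins-9 in ASI was 2128 and 3044 CPM in the flp-7 libraries, against 528 to 805 CPM in the other 3, while ins-4 had no UMI in flp-7 replicate 1 and 679 to 1524 CPM in the others.

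ASJ, an amphid neuron that acts in dauer recovery, had the highest levels of ins-30, ins-3, ins-24 and ins-2. ins-30 reached 23646 CPM in ASJ, 19140 CPM in ASI and 10836 CPM in AWA. In ASJ its libraries gave 21872 CPM in the sensory sort and 33174 and 24616 CPM in the pan-neuronal sorts. In ASI they ran from 6940 CPM in the sensory sort to 28163 CPM in flp-7 replicate 2, so ASJ and ASI overlap. ins-3 had a flat top: 7888 CPM in ASJ, 6550 CPM in ASI and 6501 CPM in ASER, followed by the serotonergic ADF with 4123 CPM. The order of those classes does not exceed the spread between libraries, since ins-3 ran from 7119 to 8550 CPM in ASJ and from 3901 to 9321 CPM in ASI. Outside the amphid neurons ins-3 was high in RIR, an interneuron, at 2747 CPM, with 1947 and 2220 CPM in the unc-86 library and the acr-2 mixture. ins-24 was at 1494 CPM in ASJ and 1113 CPM in ADF.

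The ASE pair and the AWC pair held a further set. ins-22 was at 9292 CPM in ASER and 8575 CPM in ASEL, and the 2 sides did not separate: ASER had 6456 and 9313 CPM in the sensory and eat-4 libraries, and ASEL had 7739 and 5341 CPM. The remaining ASER value, from 24 cells of pan-neuronal replicate 1, was 40838 CPM. Without the eat-4 library the order turned, with 9283 CPM in ASER and 9701 CPM in ASEL. ASI came next for ins-22 with 853 CPM. The neighbouring ins-23 was at 2109 CPM in ASEL, with 3162 and 1642 CPM in the sensory and eat-4 libraries, 1378 CPM in ASER and 111 CPM in AWC OFF. ins-14 was spread over 13 neuron classes, led by ASEL at 4014 CPM, AWC OFF at 3150 CPM and AWA at 2889 CPM. ASEL had 3576 and 4053 CPM of ins-14 in the sensory and eat-4 libraries, AWC OFF had 4053 and 1454 CPM, and the ranges overlapped. Its neighbour ins-15 was led by ASEL too (483 CPM). ins-21 was highest in the AWC ON olfactory neuron at 637 CPM, with 768 and 500 CPM in the sensory and eat-4 libraries.

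Some amphid signals rested on few libraries. ins-32 was detected only in AWA (176 CPM), where all but 5 of its 79 UMIs came from the sensory library. ins-39 was highest in ASK, a pheromone-sensing neuron, at 540 CPM, and there flp-7 replicate 2 had 2454 CPM, the sensory library 294 CPM and the other 7 libraries between 0 and 66.3 CPM. The ASI markers str-3 and daf-7 were read in AWA, ASJ and ASER. str-3 was low in ASI itself, with 21 UMIs (70.2 CPM), and had 0 UMIs in AWA, ASJ and ASER. The AWA receptor gene odr-10 was at 4747 CPM in AWA and had 0 and 2 UMIs in ASI and ASJ, but daf-7, a growth factor gene known for ASI, had 2943 CPM in AWA against 40489 CPM in ASI. In AWA daf-7 was 2529 CPM in the sensory library and 8457 and 12949 CPM in the pan-neuronal libraries, where ASI had too few cells to be set beside it. In ASJ daf-7 was at 1057 CPM, with 991 CPM in the sensory library and 1824 and 3025 CPM in the pan-neuronal ones. In ASER it was 1249 CPM in replicate 1 of the pan-neuronal sort, the library where ins-26 was also highest there, and it had 17 and 2 UMIs in the sensory and eat-4 libraries. The part of ASI transcripts in the AWA, ASJ and ASER values of ins-26, ins-5, ins-6 and ins-30 was not tested.

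Interneurons held the other large share. The first-layer amphid interneuron AIA led 4 genes, and only the 2 pan-neuronal libraries had 20 or more AIA cells, so values follow for their replicates 1 and 2. ins-18, whose product is known as a DAF-2 antagonist, was at 17834 and 13854 CPM. ins-29 was at 15878 and 15222 CPM. ins-1, known from AIA for its role in salt-avoidance learning, was at 9294 and 12299 CPM. ins-25 was at 2472 and 3646 CPM. The values of ins-29 differed least between the libraries, and ins-1 and ins-25 were higher in replicate 2 while ins-18 was higher in replicate 1. Next after AIA stood XXX (3925 CPM) and the CO2-sensing BAG (2247 CPM) for ins-29, and M1 (1232 CPM) and XXX (324 CPM) for ins-25. After AIA, ins-18 was strongest in the phasmid neurons of the tail, PHB with 9948 CPM and PHA with 9402 CPM. In PHA it was 10431 and 13534 CPM in the flp-7 libraries and 5175 to 7751 CPM in 3 others. ins-1 had its next classes in ASJ (3427 CPM) and AIN (1509 CPM). In AIN ins-1 was steady, from 1425 to 2463 CPM over 8 libraries.

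AIN and AIZ each had 1 leading gene. In AIN, ins-28 stood at 30168 CPM over all cells, with a lowest library of 6671 CPM, a median of 18877 CPM and a highest of 35354 CPM. The 2 highest were the flp-7 libraries, and replicate 2 gave 1998 of the 3216 AIN cells. Without flp-7 replicate 2, ins-28 was at 21002 CPM in AIN and was exceeded by M1 at 24796 CPM. In AIZ, ins-17 was at 16862 CPM, with a lowest of 14254, a median of 20406 and a highest of 27958 CPM over 8 libraries. No AIN library reached the lowest AIZ library for ins-17: AIN ran from 3719 to 7815 CPM. The second class of ins-17, SMB, was at 7976 CPM but had no library with 20 cells. ins-17 was also high in the neurons ALN (3912 CPM), RIF (2447 CPM) and RID (2149 CPM).

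**Figure D3:**
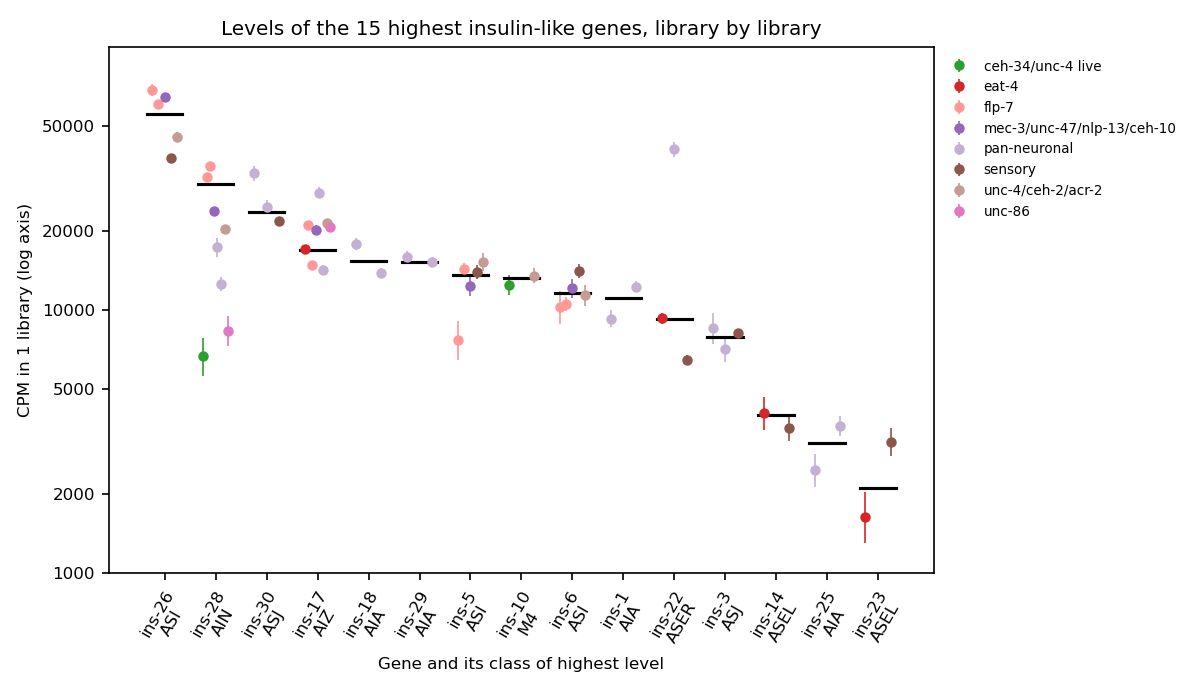
Level in CPM (log axis) of the 15 highest insulin-like genes in the class where each is highest. Points are libraries with at least 20 cells of the class, with 95% Poisson intervals, and black lines are the sum over all cells. ins-22 in ASER has 1 library at 40838 CPM above the others at 6456 and 9313 CPM, and ins-28 in AIN spans 6671 to 35354 CPM.

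Pharyngeal neurons drive feeding and form a nearly separate nervous system. There ins-10 was at 13212 CPM in M4, the motor neuron of the isthmus, with 12452 CPM in the live library of the ceh-34 mixture and 13540 CPM in the acr-2 mixture. It was at 9236 CPM in I5, 2503 CPM in I4 and 2476 CPM in MC. The I5 libraries ran from 7110 CPM to 9026 CPM in 4 sorts, and flp-7 replicate 2 stood apart at 21162 CPM from 34 cells. I4 varied widely for ins-10, from 644 CPM in the mec-3 mixture to 5743 CPM in the live library of the ceh-34 mixture. M1 and M4 shared ins-28 with AIN, at 25034 CPM in M1 and 15688 CPM in M4. In M1, ins-28 was 15847 CPM in the methanol-fixed library and 25944 CPM in the live one. ins-18 (2474 CPM fixed, 4885 CPM live) and ins-25 (179 CPM fixed from 5 UMIs, 1427 CPM live) were lower in the fixed M1 cells too. With 1 library of each kind these differences have no replicate check.

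Some members were low and narrow. ins-7 was detected only in ALA, a neuron that induces sleep, at 98.9 CPM, and its 4 libraries ran from 74.8 to 121 CPM. ins-13 was detected only in the dorsal and ventral RME motor neurons, at 171 CPM, with 218 CPM in the mec-3 mixture, 179 and 57.4 CPM (2 UMIs each) in the command interneuron and unc-86 libraries and 0 in both pan-neuronal libraries. ins-11 was highest in the phasmid neuron PHA at 80.2 CPM, but all 13 UMIs came from flp-7 replicate 2.

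Outside neurons the family was thin. XXX, a pair of head cells that make steroid hormone, had ins-29 at 3925 CPM and ins-25 at 324 CPM, from 111 cells with no library of 20 or more. The GLR cells, a glia-like mesodermal sheet of the head, had the same pair, at 1521 CPM for ins-29 and 223 CPM for ins-25. ins-27 had its highest levels in muscle. It was at 329 CPM in head body wall muscle, 286 CPM in the rest of the body wall muscle, 316 CPM in the anal depressor and 221 CPM in the anal sphincter. Over 14 libraries ins-27 in body wall muscle ran from 248 to 466 CPM with a median of 335 CPM, and no library lacked it. ins-33 was detected only in epidermis, at 335 CPM, and its 14 libraries ran from 0 to 715 CPM. The anterior intestine had ins-30 at 102 CPM, ins-35 at 85.6 CPM and ins-11 at 60.1 CPM. All 248 UMIs of ins-30 there came from the sensory library, whereas ins-35 and ins-11 were above 0 in 4 of 5 libraries.

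Free RNA can give UMIs in cells that do not express a gene, so the 15 highest members were also read in muscle, coelomocytes and epidermis. In body wall muscle, head body wall muscle and coelomocytes the median over libraries was 0 CPM for each. The highest library in these classes was always that of ins-17, with 52.6, 194 and 255 CPM. In epidermis the highest library was 353 CPM for ins-17, 327 CPM for ins-10 and 293 CPM for ins-28, while the median over libraries was 0 CPM except for ins-30 (9.32 CPM). Levels of that size in a single library elsewhere are not distinguished from this background. Pharyngeal muscle, where ins-28 was detected, was not among the classes read. There ins-28 was at 0 in 7 of 10 libraries and at 1788 CPM in the highest. Whether that value is background was not tested, so the epidermis values are not an upper limit.

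The neurons of the ventral cord were close to empty of these transcripts. Of 15 classes there, 1 had a detected member, ins-17 in DA at 65.7 CPM from 10 UMIs, and the highest level of any member was 82.6 CPM, of ins-17 in DB, from 6 UMIs. The 42 neuron classes without a member also included the command interneurons AVA, AVB and AVD and the touch neurons ALM, AVM and PVM. Related classes had 1 member each: the command interneurons AVE (ins-17) and PVC (ins-1) and the touch neuron PLM (ins-18). In small classes the rule of 10 UMIs asks for more than 50 CPM. AVD had 63257 UMIs in all, and its members summed to 237 CPM from 15 UMIs. AVG, with 2 members detected, summed to 213 CPM from 325 UMIs, so absence from AVD reflects low counts in part. For the 7 genes not detected in any class, the highest class is taken among those with at least 10 UMIs of the gene. ins-36 had the highest such level, 26.5 CPM in AIY. All 70 of its AIY UMIs were in the command interneuron library (64.2 CPM), with 0 in the other 6 libraries. By the same rule ins-16 was highest in ADL at 20.7 CPM and ins-34 in the AS motor neurons at 13.6 CPM. In a neuron class with fewer UMIs ins-34 reached 14.5 CPM. ins-37, ins-20, ins-19 and ins-12 stayed below 10 CPM in their highest class with at least 10 UMIs, at 8.38, 8.08, 6.53 and 1.15 CPM. Below these levels presence was not detectable at this depth.

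To ask where the family differed between kinds of cells, counts were summed per library and side, and the sides were compared within libraries with edgeR's quasi-likelihood test and Benjamini-Hochberg adjustment over all genes tested. A gene was called at an adjusted p under 0.05 and a log2 fold change of 1 or more in size. Each side holds its classes in the mix that the library caught. A gene passed the filter on low counts if 1 side had enough of it, so the members that passed were bound to differ more often, and their count is given as a description.

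Between neurons and non-neuronal cells of the same 15 libraries, 13 members passed the filter. Of these 12 were higher in neurons, where 25.5% of all 9144 genes tested were called higher, and ins-27 was lower, where 27.2% were called lower (52.7% in either direction). The median log2 fold change was 6.15 for the 13 and -0.06 for all genes. ins-28 averaged 1550 CPM in neurons and 8.82 CPM in non-neuronal cells, a log2 fold change of 7.03 ± 0.73 (SE; edgeR adjusted p = 3.91e-07), and was higher in neurons in 13 of 15 libraries. ins-18 averaged 355 CPM in neurons and 4.26 CPM in non-neuronal cells (6.73 ± 0.73 on the log2 scale), higher in all 15. The smallest rise was that of ins-29, 75.9 CPM against 6.46 CPM, with a log2 fold change of 2.68 ± 0.64 and an edgeR adjusted p of 0.00151. The other genes called higher were ins-26, ins-10, ins-1, ins-14, ins-17, ins-3, ins-30, ins-5 and ins-6, with log2 fold changes between 3.91 for ins-6 and 6.72 for ins-26. ins-27 averaged 9.77 CPM in neurons and 118 CPM in non-neuronal cells, a log2 fold change of -3.63 ± 0.48 (edgeR adjusted p = 2.86e-06), and was lower in neurons in 14 of 15 libraries.

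Amphid neurons were then set against all other neurons in 11 libraries. Among 15 members that passed the filter, 9 were higher in amphid neurons, beside 16.5% of all genes, and 3 were lower, beside 19% (35.5% in either direction). The median log2 fold change of the 15 was 6.85, and that of all genes tested was -0.22. ins-26 averaged 5547 CPM in amphid neurons and 4.09 CPM in other neurons, a log2 fold change of 9.84 ± 1.33 (edgeR adjusted p = 2.54e-05). ins-30 averaged 6016 CPM in amphid neurons and 13.2 CPM in the others, with 9.46 ± 0.62, and ins-5 1077 CPM against 1.22 CPM, with 9.80 ± 0.65, each higher in 11 of 11 libraries. ins-6, ins-22, ins-3, ins-14 and ins-24 had log2 fold changes between 6.85 and 8.31. In other neurons the mean of these 8 genes lay between 1.22 and 23.8 CPM. daf-7, known for ASI, was higher in amphid neurons as well, and unc-54 was lower, with a log2 fold change of -2.08.

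The genes that were lower in amphid neurons were ins-17, ins-29 and ins-28. ins-17 averaged 106 CPM in amphid neurons and 2541 CPM in other neurons (log2 fold change -3.87 ± 0.36, edgeR adjusted p = 5.24e-07), lower in all 11 libraries. ins-29 (11.7 CPM against 200 CPM, -3.64 ± 0.64) and ins-28 (107 CPM against 2203 CPM, -3.18 ± 0.75) had the smaller differences. ins-18 (566 CPM against 598 CPM) and ins-1 (359 CPM against 346 CPM) were not called, with log2 fold changes of 0.03 ± 0.51 and 0.07 ± 0.43, and both were higher in amphid neurons in 5 of 11 libraries. ins-10 had -2.47 ± 1.00 and an edgeR adjusted p of 0.0552. ins-27 was higher at a low level, 28.7 CPM in amphid neurons and 9.03 CPM in other neurons (1.74 ± 0.30), in 10 of 11 libraries. The muscle genes myo-3 (1.79 against 2.14 CPM) and unc-15 (16.3 against 7.15 CPM) did not pass the filter there, and their part in the ins-27 value was not tested. When all other sensory classes were added to the amphid side, ins-29 went to a log2 fold change of -0.01 and ins-27 to 0.99, and neither was called.

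Pharyngeal neurons were compared with all other neurons in 9 libraries, and 14 members passed the filter. Only ins-10 was called higher, beside 6.60% of all genes, and 7 were called lower, beside 13.7% (20.3% in either direction). The median log2 fold change was -3.33 for the 14 and 0.00 for all genes. ins-10 averaged 4008 CPM in pharyngeal neurons and 15.4 CPM in other neurons, a log2 fold change of 8.11 ± 0.70 (edgeR adjusted p = 1.18e-06), higher in 9 of 9 libraries. The 7 lower genes were ins-3, ins-30, ins-22, ins-26, ins-14, ins-24 and ins-5, each lower in all 9 libraries. Their log2 fold changes lay between -8.75 for ins-3 and -5.45 for ins-5. All 7 were called higher in amphid neurons, which are part of the other side here, so the 2 comparisons are not independent for them. Low levels were not particular to the pharynx. Over the 88 neuron classes neither amphid nor pharyngeal, the median was 5.19 CPM for ins-30 and 0 CPM for the rest of the 7. ins-3 had 1 UMI in the pharyngeal neurons of all 9 libraries and 4880 UMIs in the others. ins-28 had 1.67 ± 0.78 with an edgeR adjusted p of 0.147 when all pharyngeal classes were summed. With libraries of at least 20 cells per side, 4 members were called in place of 8, since ins-3, ins-5, ins-22 and ins-24 did not pass the filter there.

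**Figure D4:**
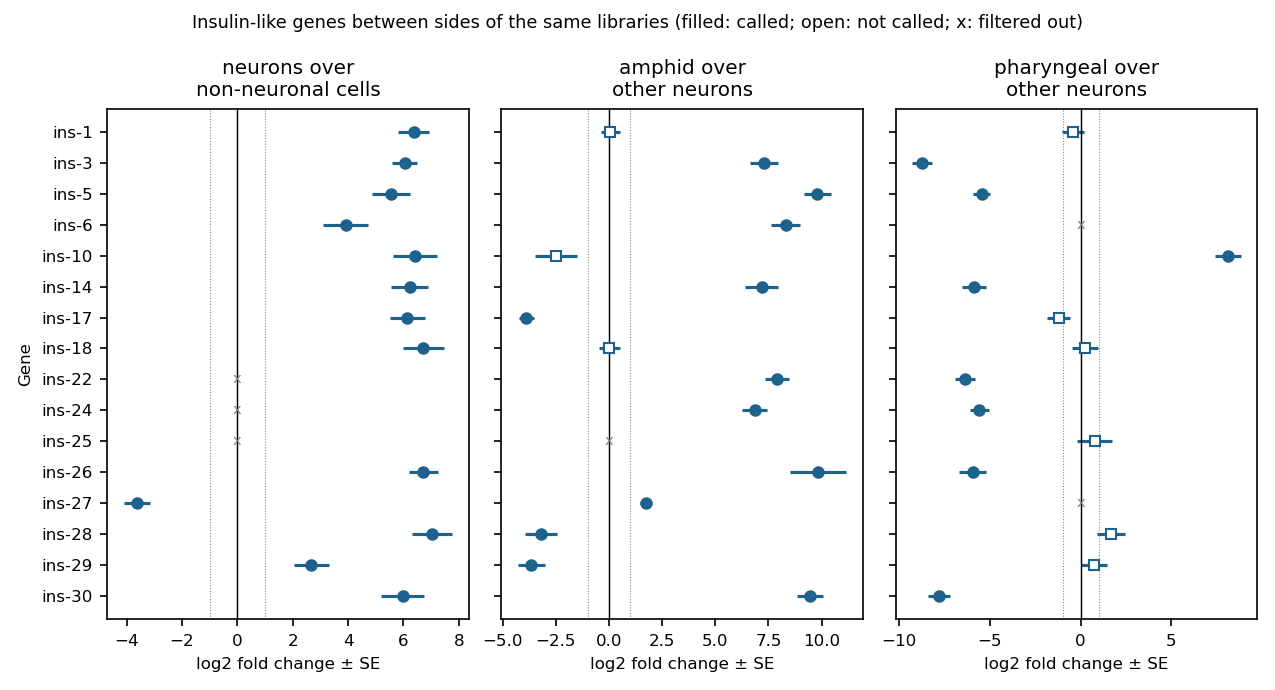
Log2 fold change ± SE of insulin-like genes in neurons over non-neuronal cells (15 libraries), amphid over other neurons (11) and pharyngeal over other neurons (9). Filled points were called, open squares were tested and not called, and a cross marks a gene that the filter on low counts removed. ins-10 is the 1 filled point above 0 in the pharyngeal panel, at 8.11.

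The P lineage is a set of blast cells that divide after hatching and give rise to cord motor neurons and epidermis. Its neurons and its progenitors were compared in 4 libraries. Of 6 members that passed the filter none was called higher in the neurons, beside 21.4% of all genes, and ins-31 was called lower, beside 16.1% (37.5% in either direction). At an unadjusted p under 0.05, 3 members passed. ins-31 had 7 UMIs in the neurons and 2003 UMIs in the progenitors, with 8.63 CPM and 48.3 CPM at 11 to 14 h, 1.36 and 1.85 CPM at 15.5 to 18.5 h, and 0.260 and 1.61 CPM and 0.0940 and 1.95 CPM in replicates 1 and 2 at 21 to 24 h, each time for neurons and then progenitors. At 11 to 14 h the neuron side was 55 cells with 92443 UMIs in all, so the 8.63 CPM there rests on few UMIs. The log2 fold change of ins-31 was -2.25 ± 0.62 (edgeR adjusted p = 0.0221), and it was lower in the neurons in 4 of 4 libraries. unc-54 was lower in these neurons too, at 1766 CPM against 27412 CPM. Other muscle genes were not: unc-15 was at 2.62 against 1.30 CPM and not called. myo-3, at 0.79 against 0.43 CPM, did not pass the filter. The part of muscle transcripts in the ins-31 value was not tested. The call of ins-31 was lost without the replicate block (-4.71, edgeR adjusted p = 0.0618). It was also lost without either the 11 to 14 h library (-2.19, edgeR adjusted p = 0.0545) or replicate 1 at 21 to 24 h (-2.19, edgeR adjusted p = 0.0716). Without replicate 2 at 21 to 24 h ins-31 did not pass the filter.

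Among progenitors ins-31 was a gene of P0. It was at 89.6 CPM in P0, 77.5 CPM in its daughter P0.a and 60.8 CPM in P0.p, nearly all from the 11 to 14 h library. In the Pn.a cells it was at 3.10 CPM and in Pn.ap at 2.35 CPM. At 15.5 to 18.5 h P0.p had 2 UMIs of ins-31, or 25.7 CPM. Its neighbour ins-19, on the other strand, was highest in P0 too, at 6.53 CPM.

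Many members lie close to another on the chromosomes, so their patterns were set beside their positions in the WBcel235 annotation. It placed 15 members on chromosome II, 10 on I, 5 on III, 3 on IV, 2 on V and 2 on X. Among detected genes, 24 pairs lay with at most 2 protein-coding genes between them. The median correlation of such pairs across the 165 classes (Pearson, log2(CPM + 10)) was 0.69, and 21 pairs (87.5%) shared a class. For the 411 other pairs the median was 0.13, and 242 (58.9%) shared a class. Classes share libraries and most are at or near 0 for both genes, so these values describe the table and carry no test.

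The adjacent pairs were not copies of each other. ins-5 and ins-6 had a correlation of 0.93, with 1.17 UMIs of ins-5 for each of ins-6 in ASI, 1.78 in ASJ and 3.73 in AWA. ins-25 and ins-29, on the same strand, had 0.90, and their balance differed between classes. For each UMI of ins-29 there were 0.206 of ins-25 in AIA, 0.139 in BAG and 0.146 in GLR, but 4.68 in RIC. The RIC value came from 117 and 25 UMIs of ins-25 and ins-29, and ins-29 was not detected there by the rule. ins-25 ran from 0 to 685 CPM over 9 RIC libraries, and the balance was not checked by library. In M1 the sum gave 1.26, and the libraries disagreed: ins-25 and ins-29 had 5 and 14 UMIs in the methanol-fixed library, 206 and 86 UMIs in the live one, and 39 and 98 UMIs in M1 cells of other libraries. Without the live library they had 44 and 112 UMIs, so the balance in M1 rests on that library. ins-22 and ins-23 had 0.80, with 6.75 UMIs of ins-22 for each of ins-23 in ASER and 4.07 in ASEL. ins-26 and ins-30 had 0.77, but 2.92 UMIs of ins-26 stood against each of ins-30 in ASI and 0.0199 in ASJ. ins-24 and ins-25, with 2 genes between them on opposite strands, had 0.02 and shared no class. A pair on different chromosomes could be as alike: ins-5 and ins-9 had 0.92.

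**Figure D5:**
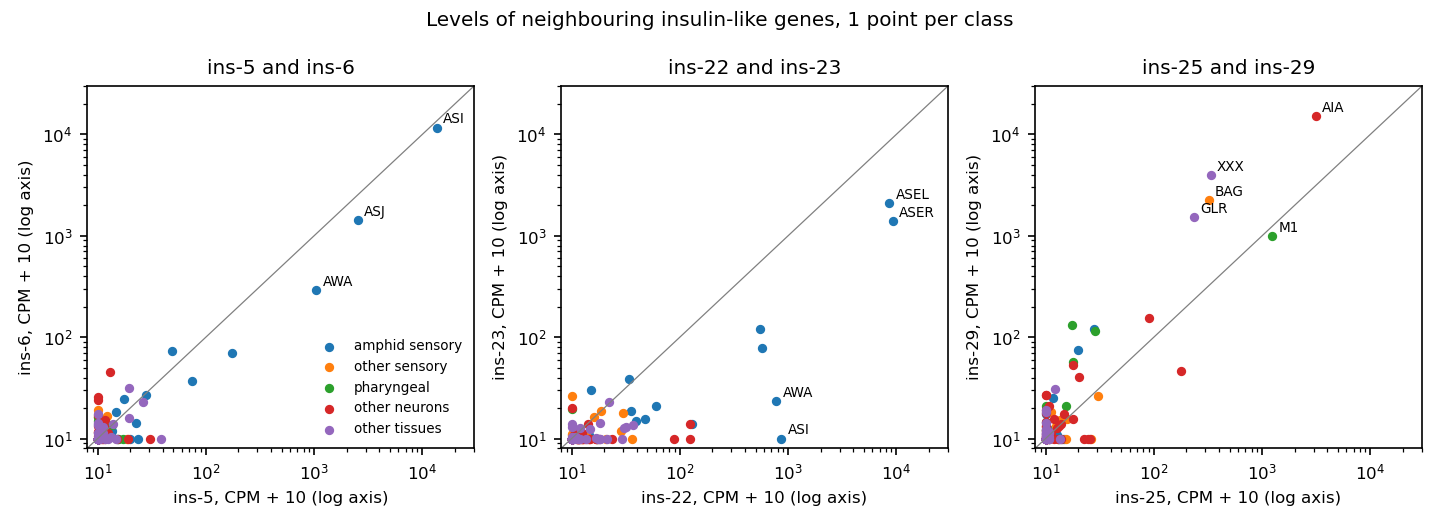
Level of 3 pairs of adjacent insulin-like genes in the 165 classes, each axis as CPM + 10 on a log axis, 1 point per class, with a line of equal level. ins-5 and ins-6 stay near the line in ASI and ASJ, ins-22 exceeds ins-23 in both ASE classes, and ins-29 exceeds ins-25 in AIA, BAG, GLR and XXX. The M1 point lies on the other side of the line through the live library alone.

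Beside the members stands daf-28, an insulin-like gene with another name whose product is known as a DAF-2 agonist. It had 39570 CPM in ASI, 12444 CPM in ASJ and 6727 CPM in AIN, so its first 2 classes were those of ins-5 and ins-6. It was higher in amphid neurons, at 4128 CPM against 411 CPM in other neurons (log2 fold change 4.09 ± 0.42, edgeR adjusted p = 1.41e-06). In pharyngeal neurons daf-28 was lower (-6.53 ± 0.45) than in all other neurons, amphid neurons included.

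On the receiving side 10 signalling genes were followed. The receptor gene daf-2 was low and broad: it was detected in 66 classes, with a median of 61.8 CPM in neuron classes and 24.9 CPM in others, and its highest class was XXX with 876 CPM. In ASI daf-2 was at 124 CPM and in AIA at 20.8 CPM. Of 9 signalling genes that passed the filter, 4 were called higher in amphid than in other neurons, beside 16.5% of all genes, and none lower. They were ist-1, an insulin receptor substrate homolog (372 CPM against 43.7 CPM, log2 fold change 3.67 ± 0.41), akt-1, a kinase of the cascade (488 CPM against 157 CPM, 1.80 ± 0.23), daf-18, the lipid phosphatase that opposes it (17.9 CPM against 6.83 CPM, 1.52 ± 0.36), and daf-16 (311 CPM against 159 CPM, 1.20 ± 0.32). In pharyngeal neurons 3 of the 7 that passed were lower than in all other neurons, amphid neurons included, beside 13.7% of all genes. They were ist-1, akt-1 and daf-16, and akt-2, a second kinase, was higher (176 CPM against 47.1 CPM, 2.11 ± 0.33), beside 6.60%. Between neurons and non-neuronal cells 5 of 9 were higher in neurons (daf-2, ist-1, akt-1, akt-2 and daf-16), beside 25.5% of all genes. The P-lineage neurons had 3 of 8 higher than the progenitors (pdk-1, akt-2 and daf-16), beside 21.4% of all genes, and daf-18 lower, beside 16.1%. akt-1 and daf-16 were the most broadly detected of the 10, in 91 and 93 classes.

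Of 8 genes of peptide processing and release, 6 were higher in neurons than in non-neuronal cells, beside 25.5% of all genes. They were the convertase genes egl-3 and kpc-1, the carboxypeptidase gene egl-21, sbt-1, whose product aids the convertase, and the dense-core vesicle genes ida-1 and unc-31. egl-21 averaged 3409 CPM in neurons and 29.2 CPM in non-neuronal cells (log2 fold change 6.88 ± 0.50). bli-4, a convertase known for cuticle proteins, was lower in neurons, beside 27.2%. The same 6 genes were called higher in P-lineage neurons than in their progenitors, beside 21.4% of all genes, and aex-5 was lower, beside 16.1%. No insulin-like member was called higher there. egl-21 there averaged 410 CPM in the neurons and 13.8 CPM in the progenitors (5.09 ± 0.50). In amphid against other neurons, none of the 7 that passed was called higher, beside 16.5% of all genes, and egl-21 was called lower, beside 19% (1882 CPM against 4321 CPM, -1.11 ± 0.22). ASI had 1197 CPM of egl-21 and 3494 CPM of sbt-1, against 6646 CPM and 18024 CPM in AIA. Among the convertases aex-5 was highest in ASI, at 3966 CPM. None of the 7 processing genes tested was called between pharyngeal and other neurons in edgeR's test, beside 20.3% of all genes in either direction.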

How the data were processed

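Single-cell RNA of 16 libraries was analysed from the UMI counts per gene and cell that the authors deposited, with the authors' class and tissue annotation per cell. Reads were processed with Cell Ranger 6.0.0, per the submitters' processing notes; for the genome build, filters on cells and treatment of doublets, nothing is given in the sources used here, and no doublet caller was run. Raw counts were summed per class and library. A level is CPM of that sum with an exact Poisson 95% interval, which covers counting error only. Classes had at least 50 cells, and a library entered a class with at least 20. Library totals ranged from 1798814 to 50689801 UMIs.

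Sides were compared with edgeR 4.0.16 (R 4.3.3), TMM scaling, its filter on low counts and the quasi-likelihood test, in libraries with at least 50 cells per side. The library was a block, because both sides come from the same sort and capture. Calls needed a Benjamini-Hochberg adjusted p under 0.05 over all genes tested and a log2 fold change of 1 or more in size. DESeq2 1.42.0 and other settings were tried as alternatives, and leaving out unc-54 was chosen after seeing the data. The script was tested on simulated data. One library whose name gives 10 h was matched to the 11 to 14 h sample as the only name left.

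All members are counted; the 15 with the highest level in a class are described by library, with every member past the threshold. Members and lists were chosen with earlier results of these data known. Gene neighbours come from the WBcel235 annotation and count protein-coding genes only; no coordinates or sequences are given.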

Additional observations from a re-analysis of the deposited data

How the results depend on the processing

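With no filter on low counts, 27 members were called between neurons and non-neuronal cells, 26 between amphid and other neurons, 18 between pharyngeal and other neurons and 4 in the P lineage, against 13, 12, 8 and 1 with the filter. With 20 cells per library and side, 4 were called in pharyngeal neurons. In the P lineage, DESeq2's size factors in edgeR gave 2 calls. Without the replicate block, 0 were called in the P lineage, 13 in neurons, 13 in amphid neurons and 8 in pharyngeal neurons. Leaving out each library in turn gave 9 to 14 calls for neurons, 12 to 14 for amphid neurons, 6 to 9 for pharyngeal neurons and 0 to 1 in the P lineage; the call of ins-31 there was lost without the 11 to 14 h library or either 21 to 24 h library. The lowest count for neurons came without the sensory library, where ins-3, ins-5, ins-6 and ins-14 did not pass the filter on low counts. The cause was not tested in any of these. No direction was reversed under the settings run.

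The 34 called pairs of member and comparison gave 754 pairs with a setting. In 24 of them the member did not pass the filter and has no value. Of the 730 log2 fold changes recomputed, 724 stayed past the threshold. The 6 that lost it were those of ins-29 and ins-27 with all sensory classes and of ins-31 at 4 settings. For ins-31, 3 of these are given beside its result. The last, 200 cells per library and side, gave -2.19 with an edgeR adjusted p of 0.0545. It leaves out only the 11 to 14 h library, with 55 neurons, so it repeats the fit without that library.

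The number of members detected was 26 at 100 CPM and 32 at 20 CPM, and 28 to 30 when each library was left out. Neuron classes with a member numbered 60 and 78 at the same thresholds, and 67 to 73. The highest class of the 15 leading members changed for ins-10 (I5 among classes of at least 100 cells), for ins-28 and ins-14 as a mean over libraries (M1 and AWA), and for ins-28, ins-3 and ins-22 when 1 library was left out. Leaving unc-54 out of the totals, chosen after seeing the data, gave 7 calls for pharyngeal neurons and the same counts elsewhere. A count of 0 can hide a low level: for ins-4 in ASI of flp-7 replicate 1, a floor of 3 UMIs stands at 164 CPM, for counting error only. That floor is not the upper end of the exact Poisson interval used elsewhere.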
